A study of Mus musculus with 12 samples.

Results

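The genes described here were the 5 subunits of the transcription factor NF-kappa B (Rela, Nfkb1, Rel, Nfkb2 and Relb) and 5 of its feedback inhibitors (Nfkbia, Nfkbie, Nfkbiz, Bcl3 and Tnfaip3). They were found by their symbols in the count matrix of a mouse stroke experiment, which held 39756 genes. All 10 were present and all 10 passed the filter on low counts, which left 17558 genes for testing. Poly(A) RNA had been sequenced from 12 brain hemispheres of male C57BL/6J mice, aged 9 to 10 weeks by the study's methods, with 4 mice in each of 3 groups. Sham mice had sham surgery and received saline. Vehicle mice had transient occlusion of the middle cerebral artery (tMCAO), a filament model of ischemia followed by reperfusion, and received saline. LJP mice had the same occlusion and received Laminaria japonica polysaccharide, an extract of a brown seaweed, by the intragastric route, begun 14 days before surgery by the study's methods. The labels call the tissue of all 3 groups the ischemic hemisphere and name 1 batch. They give no dose for the sequenced mice, though after dose finding the middle dose, 200 mg/kg, was carried into later experiments. The time of sampling of the sequenced mice is not given in the sources used here. In hemisphere tissue, fewer cells of a type and less RNA per cell cannot be told apart.

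NF-kappa B proteins bind DNA as dimers that are held in the cytoplasm of resting cells by inhibitors of the I-kappa B family. In the classical branch, signals from cytokine and Toll-like receptors activate the IKK kinase complex, the I-kappa B proteins are degraded, and dimers of RelA and p50 enter the nucleus. In the alternative branch, receptors of the TNF family act through the kinase NIK, and p100 is processed to p52, which pairs with RelB. Several target genes encode the inhibitors themselves, so that the pathway restrains itself. In the injured brain, glia, endothelium and entering leukocytes are known to use it.

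Total counts per library lay between 17960353 and 22216315. A floor of 3 counts was worth between 0.129 and 0.173 CPM. CPM, the unit of the levels below, is a gene's share of the reads of its library, on library sizes scaled by the TMM method. Vehicle mice 1 and 2 stood apart from Vehicle mice 3 and 4, and also from each other. Chi-square of the counts per degree of freedom was 64.0 between mice 1 and 2, and 4.19 between mice 3 and 4. For mouse 1 it was 47.2 against mouse 3 and 41.3 against mouse 4, and for mouse 2 it was 111 and 94.8. In 30.9% of all tested genes, Vehicle mice 1 and 2 were the 2 highest of their group. The calls and fold changes of the 10 genes are therefore given both with these mice and, in a paragraph of their own, without them. All p-values for differences between groups came from edgeR's quasi-likelihood test with Benjamini-Hochberg adjustment over all tested genes, unless stated otherwise. The exact permutation test of a single gene over 4 against 4 mice, two-sided and unadjusted, cannot go below 0.0286.

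After ischemia and reperfusion, 9 of the 10 genes were higher in Vehicle than in Sham mice (edgeR, adjusted p below 0.05). Of all tested genes, 22.7% were higher and 17.3% lower. The differences ran from 0.60 on the log2 scale for Tnfaip3 to 5.60 for Bcl3, with Rel the gene that did not pass. The median log2 fold change was 1.11 over the 10 genes and 3.5e-05 over all tested genes. In 8 of the 10, every Vehicle mouse was above every Sham mouse, which was so for 20.7% of all tested genes.

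Rela encodes p65, the transactivating subunit of the classical dimer (chr19:5637442-5648134, plus strand, GRCm38, as are all positions here). Its level was 25.3, 28.4, 25.5 and 26.6 CPM in Sham mice 1 to 4, and 76.7, 86.1, 37.5 and 42.1 CPM in Vehicle mice 1 to 4. All 4 Vehicle mice lay above the Sham range, and mice 1 and 2 lay far above mice 3 and 4. The log2 fold change was 1.20 (SE 0.23, edgeR adjusted p = 0.0021). Nfkb1, which encodes the p105 precursor of p50, went from 19.7 ± 1.57 to 41.4 ± 14.4 CPM (SD, n = 4; chr3:135584655-135691969, minus strand), a log2 fold change of 1.07 (SE 0.20). Rel encodes c-Rel, a subunit best known from lymphoid and myeloid cells (chr11:23736847-23770969, minus strand). It measured 6.06, 4.03, 5.26 and 5.86 CPM in Sham and 8.21, 11.4, 4.84 and 6.90 CPM in Vehicle mice. The groups overlapped, since Vehicle mouse 3 lay within the Sham range. The log2 difference of 0.57 (95% interval 0.07 to 1.07) did not pass (edgeR adjusted p = 0.0677), and it passed without Vehicle mouse 3.

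Both genes of the alternative branch were higher. Nfkb2 encodes p100, the precursor of p52 and itself an inhibitor of RelB (chr19:46300994-46312400, plus strand). It went from 19.1 ± 1.86 CPM in Sham to 32.4 ± 8.37 CPM in Vehicle mice (SD, n = 4), with a log2 fold change of 0.76 (SE 0.17). This was the smallest change among the 4 subunits that passed. Relb encodes the partner of p52 (chr7:19606217-19629438, minus strand). It measured between 6.03 and 6.92 CPM in Sham mice and 16.3, 21.2, 9.58 and 10.1 CPM in Vehicle mice 1 to 4, without overlap, and the log2 fold change was 1.15 (SE 0.23). Part of the exonic sequence of Nfkb2 is shared with Psd, a gene on the opposite strand, over 299 bases. Psd had 10073 to 16070 counts and was lower in Vehicle mice by edgeR, with a log2 fold change of -0.37. The strand setting of the counting is not given in the sources used here, so reads from the shared bases cannot be assigned to a strand. Non-coding genes also overlap Nfkb2, Nfkb1 and Bcl3, the last of them Gm16174 with at most 18 counts in any mouse.

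Among the inhibitors, Bcl3 had the largest fold change of the 10 genes. It encodes a nuclear I-kappa B protein that binds homodimers of p50 and p52 (chr7:19808462-19822824, minus strand). Sham mice 1 to 4 had 0.404, 0.327, 0.274 and 0.415 CPM, which came from 5 to 8 reads each, too few to pass the filter on low counts in Sham mice alone. Vehicle mice 1 to 4 had 22.1, 29.2, 9.85 and 8.68 CPM. The lowest Vehicle mouse was far above the highest Sham mouse, and the fitted difference was 48.4-fold (log2 5.60, SE 0.52, edgeR adjusted p = 5.9e-05). Nfkbiz encodes I-kappa B zeta, another nuclear member, which is needed for a secondary set of inflammatory genes (chr16:55811375-55838954, minus strand). Its level was 3.56 to 4.33 CPM in Sham and 21.9, 25.3, 8.77 and 8.35 CPM in Vehicle mice 1 to 4. The groups were apart, with a log2 fold change of 2.06 (SE 0.33).

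Nfkbia encodes I-kappa B alpha, which retains RelA dimers in the cytoplasm and is resynthesised as their target (chr12:55489409-55492647, minus strand). Sham mice had 23.9, 26.0, 24.9 and 26.0 CPM, and Vehicle mice 108, 160, 29.3 and 48.5 CPM. Vehicle mouse 3 lay just above the highest Sham mouse, and mice 1 and 2 were far above both other Vehicle mice. The log2 fold change of 1.78 (SE 0.41, edgeR adjusted p = 0.00534) became 0.62 without mice 1 and 2. Nfkbie, which encodes I-kappa B epsilon, a cytoplasmic inhibitor, went from 2.45 ± 0.563 to 5.13 ± 1.65 CPM (SD, n = 4; chr17:45555700-45563169, plus strand). Its log2 fold change was 1.07 (SE 0.25). Tnfaip3 encodes A20, a ubiquitin-editing enzyme that restrains signalling upstream of IKK (chr10:19000910-19015410, minus strand). It measured 9.46, 6.92, 6.69 and 7.51 CPM in Sham and 15.6, 12.5, 8.99 and 9.11 CPM in Vehicle mice. Vehicle mice 3 and 4 lay below the highest Sham mouse. The log2 fold change of 0.60 (SE 0.18, edgeR adjusted p = 0.0216; exact permutation p = 0.0857) no longer passed when Vehicle mouse 1 was left out (adjusted p = 0.0643), and was also lost on leaving out Sham mouse 2, 3 or 4.

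**Figure D1:**
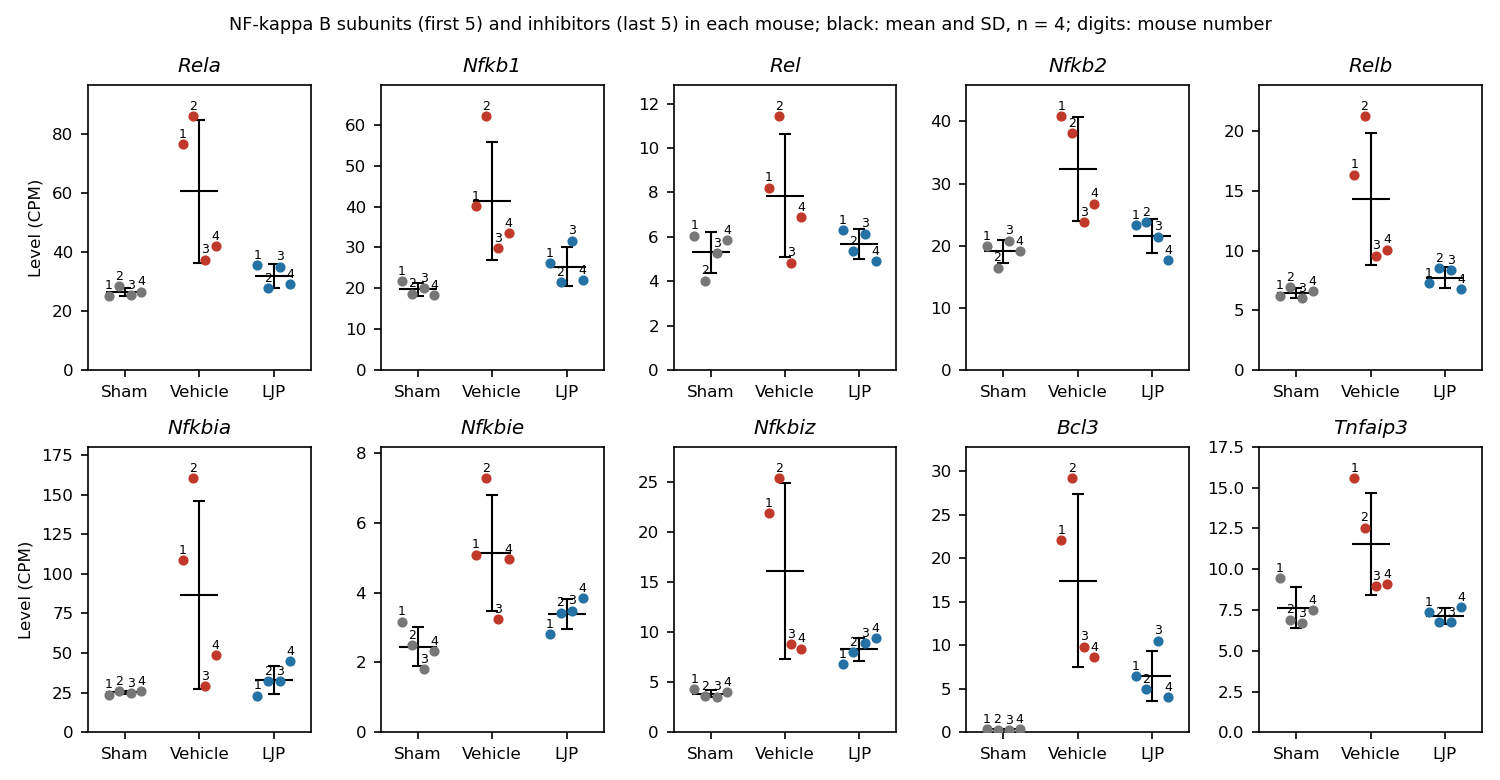
Level of each of the 10 genes in every mouse, in CPM, by group. Points are mice, digits are mouse numbers and black bars are the mean and SD of 4 mice. Vehicle mice 1 and 2 are the 2 highest of all 12 mice in each of the 10 genes, and Bcl3 is the gene with the largest fold difference between Sham (0.274 to 0.415 CPM) and Vehicle mice (8.68 to 29.2 CPM).

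The start regions of these genes are shown because NF-kappa B is known to bind at several of its own inhibitors. RefSeq windows of 300 bases on GRCm38.p6, from 250 before to 50 after an annotated start, matched 7 of the 10 genes, with 10 windows in all. Nfkb1, Relb and Nfkbiz had no entry. The 10-base NF-kappa B consensus was searched on both strands. Matches are in capitals in these 4 windows, each written 5′ to 3′ on the strand of the gene.
Bcl3, chr7:19822706-19823005, minus strand: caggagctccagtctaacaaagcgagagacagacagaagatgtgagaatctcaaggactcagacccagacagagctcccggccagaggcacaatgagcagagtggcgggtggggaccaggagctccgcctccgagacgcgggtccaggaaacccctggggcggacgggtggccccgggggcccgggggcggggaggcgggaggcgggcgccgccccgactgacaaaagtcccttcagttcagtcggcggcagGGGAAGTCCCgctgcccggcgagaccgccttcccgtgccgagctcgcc
Nfkbia, chr12:55492598-55492897, minus strand: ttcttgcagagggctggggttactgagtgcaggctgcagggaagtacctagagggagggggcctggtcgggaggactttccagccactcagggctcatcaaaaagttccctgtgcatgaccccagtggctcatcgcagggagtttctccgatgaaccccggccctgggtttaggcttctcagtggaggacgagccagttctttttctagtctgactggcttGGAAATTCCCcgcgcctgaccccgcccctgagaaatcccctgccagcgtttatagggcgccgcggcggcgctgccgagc
Nfkb2, first start, chr19:46304487-46304786, plus strand: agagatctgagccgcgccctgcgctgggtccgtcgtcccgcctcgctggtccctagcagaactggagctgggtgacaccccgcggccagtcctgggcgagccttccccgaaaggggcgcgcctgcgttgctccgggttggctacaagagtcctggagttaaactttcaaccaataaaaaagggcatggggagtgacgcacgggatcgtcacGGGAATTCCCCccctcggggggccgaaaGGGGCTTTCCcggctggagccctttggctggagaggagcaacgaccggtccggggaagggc
Tnfaip3, first start, chr10:19015361-19015660, minus strand: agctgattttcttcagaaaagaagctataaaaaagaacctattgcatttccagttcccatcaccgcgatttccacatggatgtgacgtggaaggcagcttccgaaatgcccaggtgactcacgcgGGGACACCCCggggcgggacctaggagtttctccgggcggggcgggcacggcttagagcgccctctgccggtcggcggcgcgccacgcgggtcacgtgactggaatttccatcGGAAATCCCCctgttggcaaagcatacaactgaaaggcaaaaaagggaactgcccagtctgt
In Bcl3 the match lay just after the start, and in Nfkbia it began 29 bases before it. The first window of Nfkb2 held 3 matches, of which a pair overlapped, and that of Tnfaip3 held 2. For Rel and Nfkbie only the matching bases are given.
Rel, 92 bases before the start: GGGAAATCCC
Nfkbie, 106 bases before the start: GGGGGATTCC
The Rel match overlapped a further match 1 base away. The window of Rela and the second window of Tnfaip3 held no match. In all, 6 of the 7 genes held at least 1 match, against 6.36% of the 13710 tested genes with a window. The genes were chosen as members of the pathway, and Nfkb2 had 3 windows and Tnfaip3 had 2, so this count is a description. A match describes letters only, and binding was not measured.

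In LJP against Vehicle mice, 0 of the 10 genes passed the edgeR test at an adjusted p below 0.05, as did 0.0228% of all tested genes. At an unadjusted p below 0.05, 9 of the 10 were lower in LJP mice, all except Rel, against 17.4% of all genes. DESeq2 called 8 of the 10 lower, all except Rel and Nfkbie, against 9.15% of all genes. All 10 log2 fold changes were below 0, from -0.47 for Rel to -1.42 for Bcl3, with a median of -0.80, against -0.0017 over all tested genes. Below 0 were also 50.2% of all tested genes. The calls turned on single Vehicle mice: all 10 genes were called lower in edgeR without Vehicle mouse 3, as were 13.1% of all genes, and 8 were without Vehicle mouse 4, as were 8.38%.

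Rela measured 35.7, 27.9, 35.1 and 29.1 CPM in LJP mice 1 to 4, below all 4 Vehicle mice, with a log2 fold change of -0.92 (SE 0.23, edgeR adjusted p = 0.0678). Relb had 7.27, 8.54, 8.38 and 6.74 CPM, also below every Vehicle mouse (log2 -0.89, SE 0.22). For Nfkb2 the LJP mice had 23.3, 23.8, 21.5 and 17.7 CPM, and the second of them lay just under the lowest Vehicle mouse. Tnfaip3, the A20 gene, was likewise without overlap, at 6.74 to 7.69 CPM in LJP mice (log2 -0.70, SE 0.18, edgeR adjusted p = 0.0678). Those 4 genes each reached the smallest exact permutation p, 0.0286, and groups apart in this direction were found in 5.91% of all tested genes. In Nfkb1, 3 of the 4 LJP mice lay below all Vehicle mice, and the fourth, at 31.7 CPM, lay above Vehicle mouse 3.

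The inhibitors with the largest differences overlapped between the groups. Bcl3 had 6.45, 5.01, 10.6 and 4.07 CPM in LJP mice, and LJP mouse 3 was above Vehicle mice 3 and 4. The log2 fold change was -1.42 (SE 0.38, edgeR adjusted p = 0.068, exact permutation p = 0.0857). Nfkbia had 23.2, 32.2, 32.1 and 45.0 CPM, and all but the first of these were above Vehicle mouse 3, at a log2 fold change of -1.39 (SE 0.40, edgeR adjusted p = 0.0717). Nfkbiz had 6.81, 8.03, 8.87 and 9.42 CPM, so the upper pair of LJP mice were above Vehicle mice 3 and 4. Its log2 fold change was -0.96 (SE 0.31). Nfkbie and Rel had log2 differences of -0.60 (95% interval -1.13 to -0.07) and -0.47 (95% interval -0.97 to 0.03).

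**Figure D2:**
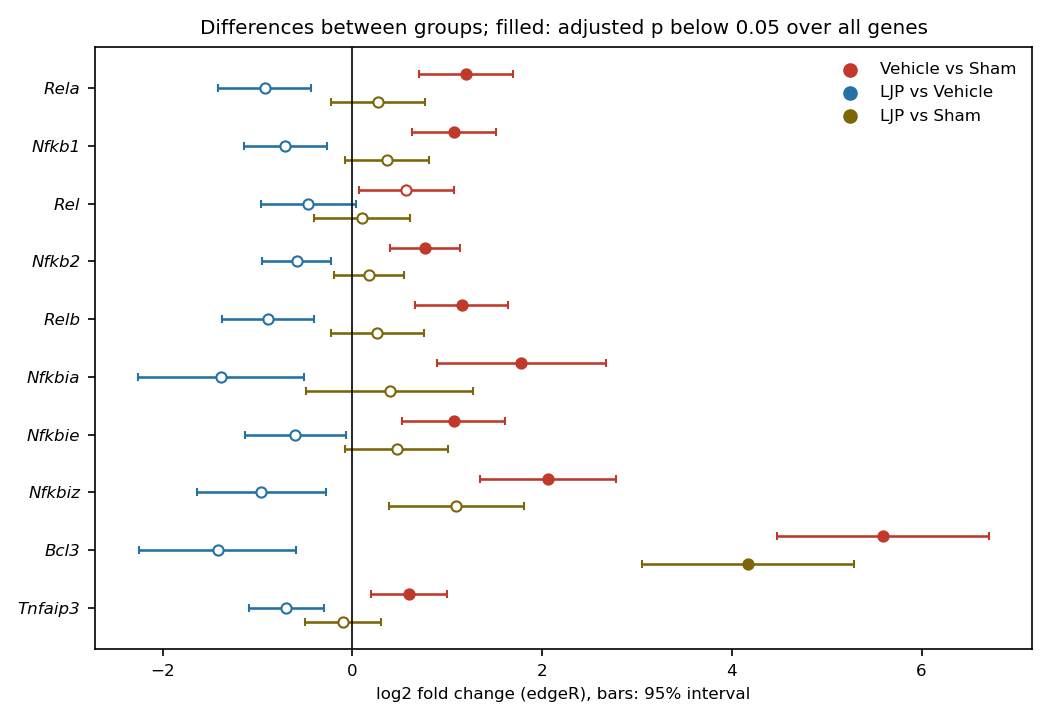
Log2 fold change (edgeR) of each gene on the x axis, for Vehicle against Sham, LJP against Vehicle and LJP against Sham, with 95% intervals. Filled points have an adjusted p below 0.05 over all genes. Points of LJP against Vehicle lie below 0 in all 10 genes and none is filled, while Bcl3 is the gene filled in LJP against Sham. Comparisons share groups, so their points are not independent.

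In each of the 10 genes, Vehicle mice 1 and 2 were above all 10 other mice, which was so for 21.4% of all tested genes. The mean of mice 1 and 2 was 1.51 to 3.45 times that of mice 3 and 4, against a median of 1.01 over all tested genes. The median coefficient of variation of the 10 genes was 37.0% in Vehicle, 9.55% in Sham and 12.8% in LJP mice, against 21.4%, 8.39% and 10.9% over all tested genes. Without Vehicle mice 1 and 2, an alternative chosen after the data were seen, 8 of the 10 genes were still higher in Vehicle than in Sham mice by edgeR, all except Rel and Tnfaip3, as were 15.7% of all genes. DESeq2 then called 7 higher, without Nfkbia (adjusted p = 0.0805), against 14.2% of all genes. Bcl3 then had a log2 fold change of 4.67, Nfkbiz of 1.14 and Rela of 0.58. In LJP against the remaining Vehicle mice, 0 of the 10 passed in edgeR, as did 0.0443% of all genes, and 0 in DESeq2, which called 0.67% of all genes lower. At an unadjusted p below 0.05, edgeR then had 4 of the 10 lower (Nfkb1, Rela, Relb and Tnfaip3), against 7.27% of all genes. The log2 fold changes then lay between -0.51 (Bcl3) and -0.05 (Nfkbiz and Rel), with Rela at -0.32 and Nfkbia at -0.24.

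**Figure D3:**
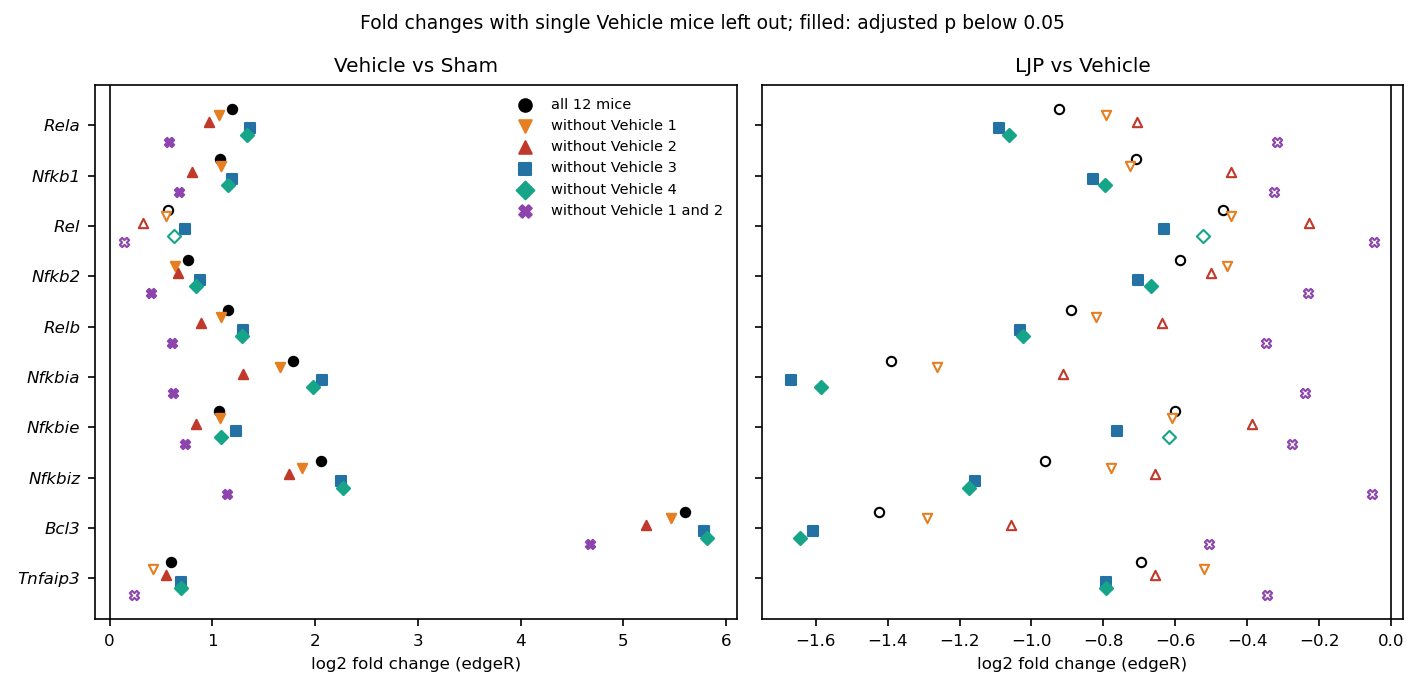
Log2 fold change (edgeR) of each gene with all 12 mice and with single Vehicle mice, or mice 1 and 2 together, left out, for Vehicle against Sham (left) and LJP against Vehicle (right). Filled symbols have an adjusted p below 0.05. Differences shrink toward 0 without mice 1 and 2, and in LJP against Vehicle all 10 genes are filled without mouse 3.

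Comparing LJP with Sham mice set the levels after ischemia and treatment beside those without ischemia. This comparison and the others share mice, so their values are set side by side and are not independent. Bcl3 was the 1 of the 10 genes that passed, with a log2 fold change of 4.17 (SE 0.52, edgeR adjusted p = 0.00114). It was 18.1-fold higher in LJP than in Sham mice, and 3.85% of all tested genes were called higher. Nfkbiz was also above the Sham range in all 4 LJP mice, by 1.10 on the log2 scale, without passing in edgeR (adjusted p = 0.0849, exact permutation p = 0.0286). It passed in DESeq2 (adjusted p = 0.0168), which called 5.67% of all genes higher, and in edgeR when Vehicle mouse 2, 3 or 4 was left out. Groups apart in this direction were found for 12.9% of all tested genes.

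The other 8 genes had log2 differences from Sham between -0.10 (Tnfaip3) and 0.47 (Nfkbie). For Tnfaip3 the 95% interval was -0.50 to 0.30, and for Rela, at 0.27, it was -0.22 to 0.77. Nfkbia had the widest interval of the 8, from -0.49 to 1.27. All 8 intervals included 0, so the sign of none of these differences from Sham was determined with all 12 mice. Without Vehicle mice 1 and 2, Nfkb1 and Rela also passed in this comparison, making 4 of 10 higher against 12.3% of all genes.

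Levels of different genes were compared per length, as RPKM, which is CPM divided by the gene's length in kilobases. In Sham mice Nfkbia was highest at 16.0, followed by Rela at 9.23 and Nfkb1 at 4.33, with no overlap between these neighbours. Bcl3 was last at 0.186 RPKM. In Vehicle mice Nfkbia was at 54.8, Rela at 21.1 and Bcl3, now the third, at 9.16 RPKM, though neighbours overlapped in all places but the step from Nfkb2 to Tnfaip3. In LJP mice Bcl3 was the fourth, at 3.42 RPKM. Ratios between pairs of genes are given as a description, with no test. Relb per Rela was 0.237 ± 0.00461 in Sham, 0.233 ± 0.0179 in Vehicle and 0.239 ± 0.0426 in LJP mice (ratio of RPKM, SD, n = 4). Nfkbia per Rela, an inhibitor against the subunit it retains, was 1.73 ± 0.0545 in Sham mice and 2.57, 3.38, 1.42 and 2.09 in Vehicle mice 1 to 4, on both sides of the Sham value, as were the 1.18, 2.10, 1.66 and 2.81 of LJP mice 1 to 4. Bcl3 per Nfkb1, a binder of p50 against its precursor, went from 0.0432 ± 0.00883 in Sham to 0.963 ± 0.318 in Vehicle and 0.597 ± 0.148 in LJP mice.

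Over the 12 mice, correlations of log2 CPM between the 10 genes lay between 0.55 and 0.97 in their 45 pairs, and after removal of group means between 0.36 and 0.93. These points share libraries, groups and the high level of Vehicle mice 1 and 2, and the values are a description. The genes outside the 10 with the most similar pattern to Bcl3 were Capg (r = 0.996), which encodes an actin-capping protein of macrophages, and Serpina3n (r = 0.995), known from reactive astrocytes. For Rela they were Irak3 (r = 0.992), an inhibitor of Toll-like receptor signalling, and Tnfrsf23, and for Nfkbiz they were Cdkn1a, the p21 gene, and Mfsd10. For Nfkb1 they were B3gnt3 and Cmtm6, for Relb Smtn and Notch1, and for Nfkbia Fzd1 and Smad1. Weaker likeness was found for Nfkb2 (Fance and Dnttip1), Rel (Snrpg and Mospd3), Nfkbie (Mustn1 and 4930486L24Rik) and Tnfaip3 (Zfand2a, r = 0.932, and Rbm42).

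The other genes of the pathway were taken from 4 lists. Their counts stand against 22.7% of all tested genes higher and 17.3% lower in Vehicle than in Sham mice. Of 18 receptors, 15 were tested and 13 were higher in Vehicle than in Sham mice, 0 lower, by edgeR. Of these higher receptors, 1 passed the filter on low counts only through Vehicle mice. In Sham mice alone 13 receptors would have passed the filter, and 11 of those were higher. The receptors with the smallest p were Tlr2, a receptor for lipoproteins (log2 4.16), Tnfrsf12a, the receptor of TWEAK (log2 3.05), and Tnfrsf1b, the second TNF receptor (log2 2.99). Of 25 adaptors and kinases, all tested, 12 were higher and 1, Traf3, was lower (log2 -0.30; named, as is Sod2 further on, after its value was seen). Among the 12 higher, 1 passed the filter only through Vehicle mice. The leading ones were Card9 (log2 1.65), Irak4 (log2 2.29) and Myd88 (log2 2.06), the last 2 of which link Toll-like and IL-1 receptors to IKK. The IKK genes themselves, named after their values were seen, did not pass: the log2 differences were 0.14 for Ikbkb, -0.04 for Chuk and 0.18 for Ikbkg. Map3k14, the NIK gene, also named after its value was seen, was higher at log2 1.00.

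Of 22 further inhibitors, 21 were tested, 13 were higher and 4 were lower in Vehicle mice (edgeR). Calls in this list thus went both ways, and the 4 lower of 21 were a share near that of all genes. The count of 17 fell to 9, 11 and 11 without Sham mouse 1, Sham mouse 3 or Vehicle mouse 2, and to 9 without Vehicle mice 1 and 2. Tnfaip8l2, a brake on immune receptor signalling, was higher at log2 2.21. The deubiquitinase gene Cyld fell by 1.05 and Rnf11, a partner of A20, fell by 0.40 on the log2 scale. Of 30 induced targets, 24 were tested, 23 were higher and 1, Sod2, was lower (log2 -0.25). In this list 13 of the 24 tested genes had too few counts in Sham mice to pass the filter there, and 7 of them, Csf3, Bcl2a1d and Saa3 among these, passed it only through Vehicle mice. Being tested thus favored a higher call in Vehicle mice, and the count and median of this list are descriptions. Csf3, the G-CSF gene, had 285 counts over the 4 Vehicle mice and 3 over the 4 Sham mice, a ratio of 84.4 (exact 95% interval of the counting error 28.6 to 412). Bcl2a1d, an anti-apoptotic gene of myeloid cells, had 83 against 2 counts, a ratio of 36.9 (interval 9.89 to 309). Csf1, a growth factor of microglia and macrophages, was higher at log2 1.84. Without Vehicle mice 1 and 2, 12 receptors, 10 adaptors and kinases, 6 further inhibitors and 17 induced targets were higher, and 3 further inhibitors and 1 induced target were lower, against 15.7% of all genes higher and 14% lower. Of the 6 targets that did not pass the filter on low counts, Ccl20 had 1 count in all and Csf2 had 0, and the other 4, the cytokine genes Il1b, Il6, Tnf and Cxcl2, were named after their values were seen. Without the filter edgeR called these 4 higher in Vehicle than in Sham mice (adjusted p from 0.00196 to 0.00523), as it did 13.1% of all genes, and DESeq2 also called them higher. Vehicle mice 1 to 4 had 96, 58, 5 and 12 counts of Il1b and 216, 80, 0 and 4 of Cxcl2, so most reads came from mice 1 and 2. The 4 Sham mice together had 10 counts of Il1b and 1 of Cxcl2. In LJP against Vehicle mice, without the filter, edgeR called Il1b, Il6 and Cxcl2 lower, against 1.8% of all genes, and Tnf had an adjusted p of 0.0992. DESeq2 called Il1b, Cxcl2 and Tnf (adjusted p = 0.0321) lower and gave no adjusted p for Il6.

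In LJP against Vehicle mice, 1 gene of the 4 lists passed in edgeR: Csf3 was lower (adjusted p = 0.000929), with 2 counts over the 4 LJP mice against 285 over the Vehicle mice, a ratio of Vehicle to LJP of 135 (exact 95% interval of the counting error 36.9 to 1117). Among the receptors, 0 of 15 passed, and the smallest p were those of Tnfrsf1a, the first TNF receptor (log2 -1.64), and Ltbr, a receptor of the alternative branch (log2 -1.53), both at an adjusted p of 0.0678. Myd88 had a log2 difference of -1.24 and Ripk1 of -1.02. Irak3 had -1.83, and Zc3h12a, which encodes the RNase Regnase-1, had -1.86. For Saa3, an acute-phase gene, the log2 difference was -5.09 and the Vehicle mice had 1180, 290, 89 and 49 counts, the most in mouse 1. Of the genes tested in edgeR, DESeq2 called 8 receptors, 4 adaptors and kinases, 6 further inhibitors and 13 induced targets lower, and 1 further inhibitor higher, against 9.15% of all genes lower and 3.69% higher. The median log2 fold changes of the 4 lists in the order given were -1.01, -0.14, -0.30 and -1.35. As with the 10 genes, the edgeR calls turned on single Vehicle mice: without mouse 3, 8, 7, 9 and 16 genes of the lists were lower, against 13.1% of all genes, and without mouse 4, 8, 4, 4 and 16, against 8.38%. Without mice 1 and 2, Csf3 was again the 1 gene called in edgeR (log2 -6.66, adjusted p = 0.000378), and Saa3 had -2.78. DESeq2 then called 1 receptor lower, Ltbr. It gave no adjusted p for 2 receptors, 1 adaptor, 4 further inhibitors and 12 of the 24 induced targets, Csf3 and Saa3 among them, and called 0 of the others. The medians without these mice were -0.43, -0.05, -0.07 and -0.36. Against Sham mice, 8 receptors, 1 adaptor or kinase, 2 further inhibitors and 5 induced targets were higher in LJP mice and 1 further inhibitor was lower (edgeR), against 3.85% of all genes higher and 0.9% lower. These counts also turned on single mice. Called receptors ran from 4, without Sham mouse 1 or LJP mouse 3, to 12, without Vehicle mouse 2, and were 5 without Sham mouse 2 or 4. Adaptors and kinases called in either direction ran from 0, without Sham mouse 1 or 4 or LJP mouse 3, to 4, without Vehicle mouse 2. Further inhibitors called ran from 1, without any 1 of the Sham mice or without LJP mouse 1 or 3, to 5, without Vehicle mouse 2. The share of all genes called in either direction moved with them, from 4.75% with all mice to 2.25% without Sham mouse 1, 2.2% without LJP mouse 3 and 13.3% without Vehicle mouse 2. Without Vehicle mice 1 and 2, 12 receptors, 8 adaptors and kinases, 4 further inhibitors and 12 induced targets were higher, and 1 adaptor or kinase, 3 further inhibitors and 1 induced target were lower, against 12.3% of all genes higher and 12% lower. Tlr2 was the leading one of the 3 receptors named above, at log2 3.62.

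**Figure D4:**
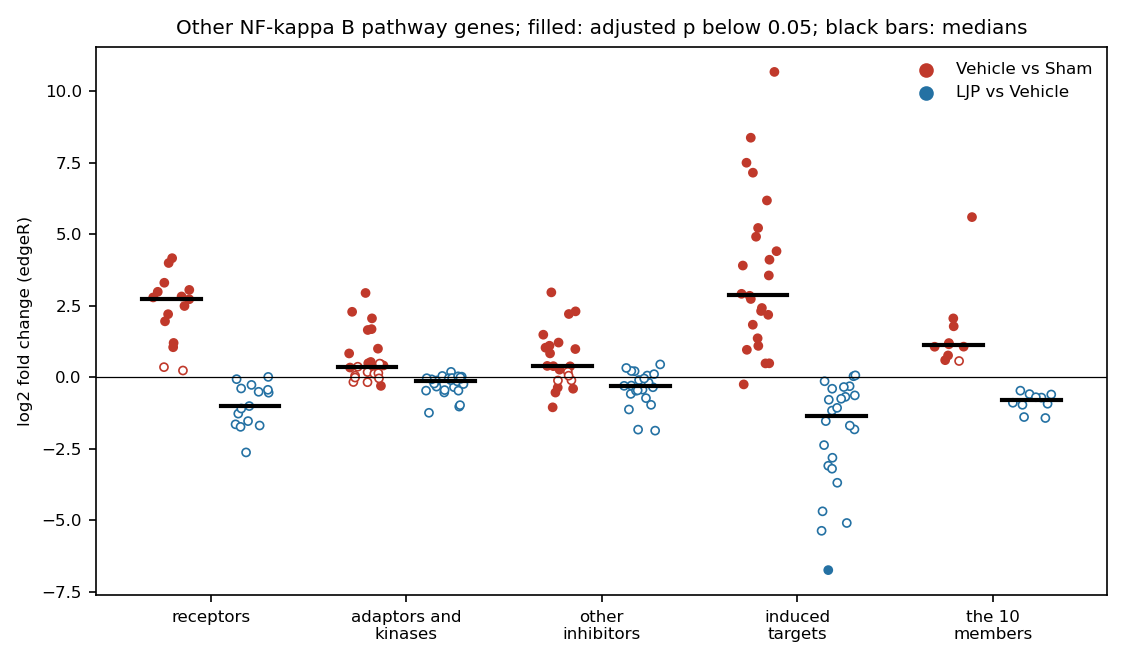
Log2 fold changes (edgeR) of the tested genes of the 4 pathway lists and of the 10 genes described here, in Vehicle against Sham and LJP against Vehicle. Points are genes, filled where the adjusted p is below 0.05, and black bars are medians. Receptors and induced targets have the highest medians in Vehicle against Sham (2.73 and 2.88), adaptors and kinases a median of 0.37. Fitted values of genes with few Sham counts depend on the prior count, and with Cxcl1, at 0 in every Sham mouse, set at its bound the median of the induced targets was also 2.88.

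Markers of brain cells were present in all mice, with neuronal markers summing to 3606 to 6516 CPM. Summed endothelial markers moved with the NF-kappa B genes: they were 618, 1294, 251 and 313 CPM in Vehicle mice 1 to 4, against 171 to 187 in Sham and 166 to 226 in LJP mice, and 4 of 5 were higher in Vehicle than in Sham mice (edgeR). Monocyte and macrophage markers summed to 184, 349, 62.4 and 111 CPM in Vehicle mice, 14.4 to 21.7 in Sham and 24.7 to 96.7 in LJP mice, with all 6 tested markers higher in Vehicle than in Sham mice. Single markers did not all follow the sum. Mrc1 had 186, 1276, 202 and 254 counts in Vehicle mice 1 to 4, the fewest in mouse 1, and Ms4a7 had 14, 76, 8 and 26. The other listed markers of this type were highest in Vehicle mice 1 and 2. Ccr2, Ms4a7 and Arg1 passed the filter on low counts only through Vehicle mice, so being tested favored a higher call for these 3. The marker counts for Vehicle against Sham, here and for the other cell types, stand against 22.7% of all genes higher and 17.3% lower. Neutrophil markers summed to 157, 36.0, 0.700 and 5.12 CPM in Vehicle mice and to at most 1.17 in the other groups. In LJP against Vehicle mice, DESeq2 called 5 of the 5 endothelial and 3 of the 6 tested monocyte and macrophage markers lower, against 9.15% of all genes, and edgeR 0 of them. Without Vehicle mice 1 and 2, when 0.67% of all genes were lower in DESeq2 and 15.7% higher in Vehicle than in Sham mice in edgeR, DESeq2 called 3 and 1 of them lower, with no adjusted p for 3 of the monocyte and macrophage markers, and edgeR called 4 endothelial and 4 monocyte and macrophage markers higher in Vehicle than in Sham mice. None of the 8 neutrophil markers passed the filter on low counts, so none was tested. Vehicle mice 1 to 4 had 1368, 302, 3 and 27 counts of S100a9 and 408, 146, 1 and 9 of Cxcr2, against at most 7 of S100a9 and 2 of Cxcr2 in any Sham or LJP mouse. S100a8 and Retnlg were likewise highest in Vehicle mice 1 and 2, whereas Ly6g, a defining marker, had at most 4 counts in any mouse.

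Microglial markers did not follow the same mice. They summed to 417, 741, 794 and 829 CPM in Vehicle mice 1 to 4, with mouse 1 the lowest, to 294 to 299 CPM in Sham and to 504 to 852 CPM in LJP mice. Of the 7 microglial markers, 6 were higher in Vehicle than in Sham mice (edgeR), and in LJP against Vehicle mice 0 passed at an adjusted or an unadjusted p below 0.05, with a median log2 fold change of 0.03. Astrocyte markers ran from 917 to 963 CPM in Sham, 2261 to 3720 in Vehicle and 1895 to 3079 in LJP mice, and 2 of the 6, Gfap and Aldh1l1, were higher in Vehicle than in Sham mice (edgeR). Gfap carried most of the rise, at 107 to 155 CPM in Sham and 1456 to 2853 CPM in Vehicle mice, and the other 4 markers had log2 differences between -0.09 and 0.22. Neuronal markers were lowest in Vehicle mice 1 and 2, at 4861 and 3606 CPM, and 2 of the 7 were lower in Vehicle than in Sham mice, or 4 lower and 1 higher without mice 1 and 2. Lymphocyte markers were low everywhere, from 3.61 to 25.4 CPM, and most of this sum was Cd4, the 1 marker tested, which was lower in Vehicle than in Sham mice. The other 6 had at most 13 counts in any mouse. Oligodendrocyte markers lay between 3292 and 4458 CPM, and 0 of the 4 passed in edgeR in Vehicle against Sham, with 2 at an unadjusted p below 0.05 and 0 in DESeq2. Vehicle mice 1 and 2 also had larger total counts, 21633197 and 22216315, than Vehicle mice 3 and 4, at 18409922 and 18317859. The part of these cell markers and of depth in the differences of the 10 genes was not tested.

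**Figure D5:**
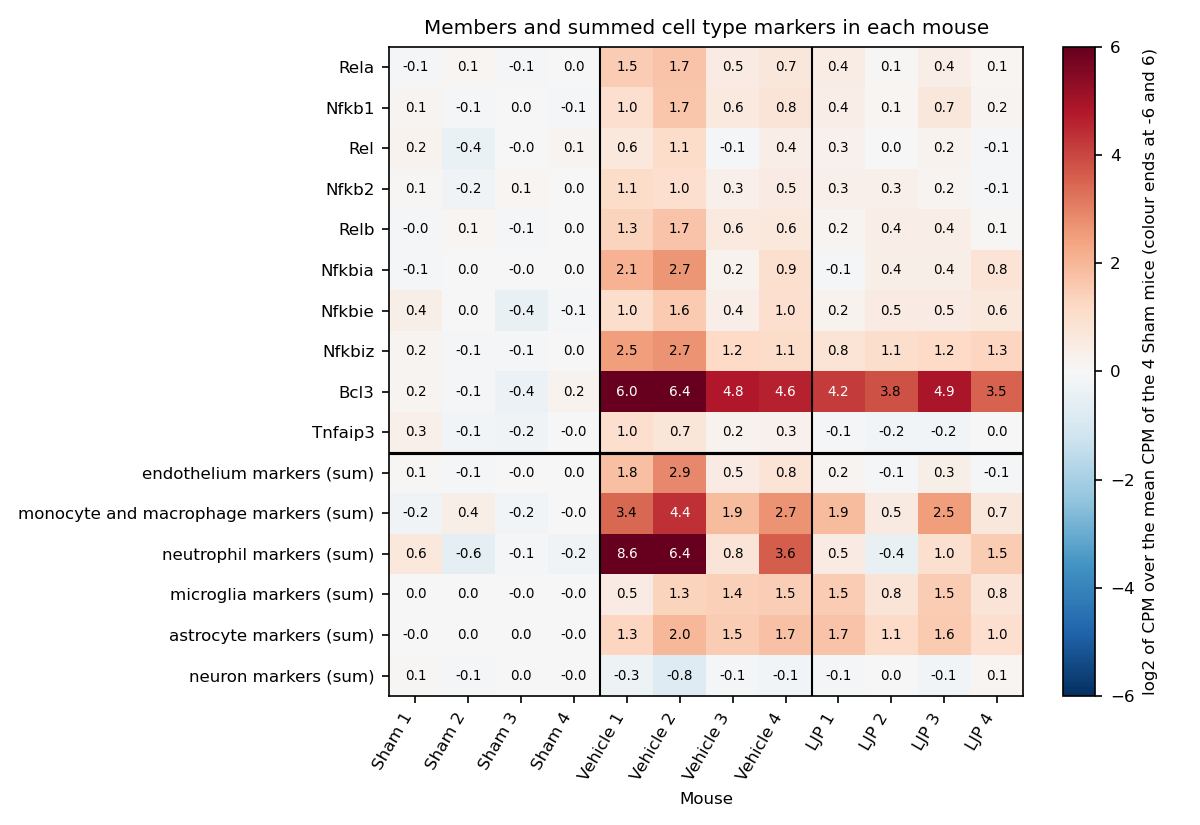
Level of the 10 genes and summed level of cell type markers in each of the 12 mice, as log2 of CPM over the mean CPM of the 4 Sham mice. Color and printed value show the same quantity, and color ends at -6 and 6. The sums of endothelial and of monocyte and macrophage markers are high in Vehicle mice 1 and 2. The sum of microglial markers is not higher there than in Vehicle mice 3 and 4.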

How the data were processed

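The authors deposited raw read counts per gene for 12 poly(A) libraries in 1 matrix, with gene length, position and type. The submitters' processing notes name featureCounts and DESeq2, with no version, and the builds GRCm39 and mm10. The positions in the matrix matched GRCm38. The aligner and the strand setting are not given in the sources used here. Groups came from the labels, with 4 separate mice each.

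The counts were fitted with edgeR 4.0.16 in R 4.3.3: filterByExpr, TMM scaling and 1 quasi-likelihood model over all 12 mice, with an adjusted p below 0.05 as the threshold. Levels are CPM on scaled library sizes, and RPKM where genes are compared. Exact permutation tests used log2 CPM with a prior count of 2 over 70 splits of 8 mice. Intervals of fold changes are 95% t intervals. The script was tested on simulated data. Alternatives were DESeq2 1.42.0, no filter, library size without TMM, another prior count of 0.5, only the 2 groups compared, a replicate block, each mouse left out, and thresholds after the study's methods (unadjusted p below 0.01 and a log2 change above 0.58). Named genes were all 10 members, the 3 genes per pathway list with the smallest p in Vehicle against Sham and the 2 in LJP against Vehicle, the 2 genes most correlated with each member, and the markers. Traf3, Sod2, Ikbkb, Chuk, Ikbkg, Map3k14, Il1b, Il6, Tnf, Cxcl2, Ccl20 and Csf2 fall outside this rule and were named after their values were seen. The members and the gene lists were chosen with earlier results of these data known, so their counts are descriptions, and no set test was run. Replicates of a group differed by more than sampling noise in all 18 pairs (chi-square per degree of freedom 2.48 or more). Intervals and floors of counts cover counting error only.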

Additional observations from a re-analysis of the deposited data

How the results depend on the processing

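For Vehicle against Sham, 7 to 10 genes were called under all alternatives, against 9. The share of all genes called higher ran from 10% to 27%. For LJP against Vehicle, 8 genes were called by DESeq2, by the study's thresholds with edgeR and by those with DESeq2. These settings called 9.15%, 5.89% and 4.62% of all genes lower, in that order. Without the filter 3 were called (Rela, Relb and Bcl3), against 1.8% of all genes lower. When each mouse was left out, 0 to 10 were called, against 0.0167% to 13.1% of all genes lower. For LJP against Sham, 2 were called by DESeq2 and by the study's thresholds with edgeR or DESeq2. These settings called 5.67%, 5.1% and 3.62% of all genes higher, in that order. With only the 2 groups compared 4 were called, against 12.1% of all genes higher. Without Vehicle mice 1 and 2, either tool called 4, against 12.3% of all genes higher in edgeR and 11.6% in DESeq2. When each mouse was left out, 1 to 2 were called, against 1.96% to 7.77% of all genes higher. LJP mice were all above Sham mice in 4 genes on library size alone (16.5% of all genes), against 2 with TMM (12.9%). Of the single genes, 2 changed sign with a mouse left out, both in LJP against Sham and neither called: Tnfaip3 ran from -0.15 to 0.023 and Rel from -0.010 to 0.18. The causes were not tested. Over all genes, LJP against Vehicle gave 4 calls in edgeR, 593 without the filter, 2298 in DESeq2, and 3857 or 2095 without Vehicle mouse 3 or 4, and LJP against Sham gave 834, against 4043 with only the 2 groups. Deviations from group means were correlated between mice of the same replicate number at -0.51 to 0.22. With 4 mice a group, these values cannot tell whether the mice were paired. A replicate block left 9, 0 and 1 of the 10 genes called, with 464 in place of 834 genes called in LJP against Sham.

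With 4 mice a group, 1 mouse can change which genes are called. Bcl3 in Sham mice rests on 5 to 8 reads a mouse, so its fold is imprecise.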
